A study of Homo sapiens with 5 samples.

Results

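The sites described here are wild-type (WT) FOXB1 ChIP-seq peaks (chromatin immunoprecipitation, then sequencing) with more than 3 input tags. Tags are aligned reads, and the input is chromatin sequenced with no antibody step. The cells were pre-neural crest cells at differentiation day 3, grown from the established embryonic stem cell line WA01. They were chosen by the deposited input tag number of each peak: 141 of 3348 peaks of WT replicate 1 and 166 of 4388 peaks of WT replicate 2 passed. After overlapping peaks of both lists were merged, 244 of 5578 WT sites were members, which was 4.37%. The 5334 other sites, with 3 or fewer input tags, served for comparison. The data comprised 2 WT libraries, 2 libraries from FOXB1 dgRNA-KO cells, a WA01 line whose FOXB1 coding sequence for the DNA-binding domain had been deleted with CRISPR/Cas9, and 1 WT input library. The anti-FOXB1 antibody was used on both genotypes, all of them grown with the GSK3 inhibitor CHIR 99021 and, at the start, a ROCK inhibitor. The labels do not say whether the KO line is 1 clone, nor whether replicates were separate cultures, so tests and SDs measure only the spread between these libraries.

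FOXB1 is a forkhead transcription factor of the developing nervous system, and the neural crest arises at the border of the neural plate. Input tags measure how much DNA of a place reaches the sequencer without any antibody. As background, reads from tandem repeats near centromeres and on chromosome Y can align to the few copies held by a reference genome, which raises input and ChIP tags there alike. A peak caller therefore asks for an excess over input, and a peak with many input tags passes only when it is also tall. The cells' identity could not be checked, since peak lists hold no expression values. Sites are given by position and cytogenetic band in hg19, and no gene names or sequences are given because no gene table or genome of that build was used here.

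The libraries held 15106068 to 22637495 tags. The scaled tag columns of all 4 lists imply an input of about 13800000 tags. At the caller's genome size of 2000000000 bp, such an input would put 2.19 and 2.22 tags in an average window of WT replicates 1 and 2. Input tag numbers are therefore small, and 4 tags lie above that average, though by few tags. Over all peaks of each WT list the median was 1 input tag, and the highest numbers were 24 and 22. Of the 244 member sites, 166 had 4 input tags in the list where they had most, 45 had 5 and 33 had 6 or more. The name "high input" thus describes the 33 sites better than the other members. Intervals below are exact Clopper-Pearson 95% intervals of shares and cover counting error only. Peaks of one library are not replicates, so tests were run over libraries: 2 WT libraries cannot give an exact sign-flip p below 0.5, and 2 libraries against 2 cannot give an exact permutation p below 0.333. Both WT lists counted tags of the same input, so agreement between them does not replicate where the input is high.

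Height and fold over input of the members were set by the rule together with the caller's filter, and are given as a description. Height is the normalized tag count, scaled to a library of 10000000 tags. In WT replicate 1, member heights ran from 11.5 to 81.2 with a median of 15.2, and the peaks with 3 or fewer input tags ran from 6.81 to 41.4 with a median of 9.95. In WT replicate 2, member heights ran from 11.5 to 77.7 with a median of 15.5, against 6.18 to 45.1 and a median of 9.28. The caller kept peaks with at least 4 times the input, so that no peak with 4 or more input tags could stand lower than the members did. Among low-input peaks that reached the height of the lowest member, 1066 in WT replicate 1 and 1127 in WT replicate 2, the median heights were 13.1 and 13.3. Just outside the limit, the 432 and 517 peaks with exactly 3 input tags had median heights of 11.0 and 10.6. Just inside it, the 99 and 111 peaks with exactly 4 had medians of 14.1 and 13.7.

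**Figure D1:**
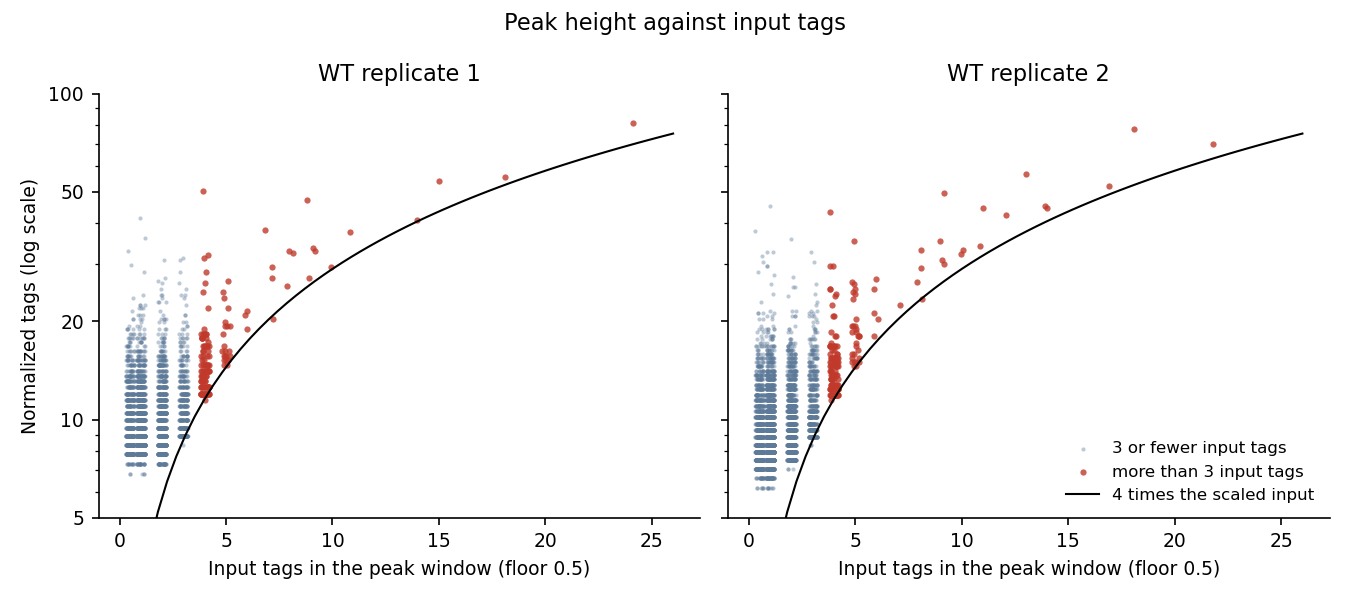
Normalized tags of each peak (log scale) against its input tags in WT replicates 1 and 2, with a small sideways scatter added to the input tags so that points can be told apart. Red points have more than 3 input tags, and most lie close above the line of 4 times the scaled input, with folds up to 17.3 and 15.1. Blue points have 3 or fewer and start at 6.81 and 6.18 normalized tags.

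Members stood little above the input. Their folds over input had medians of 4.88 and 4.87, against 11.6 and 11.0 for the low-input peaks. A low fold was not particular to the members: peaks with exactly 3 input tags had medians of 5.06 and 4.87. Of those peaks, 46.3% and 52.2% had folds under 5. Folds under 5 made up 56.7% of the members of WT replicate 1 and 56.0% of those of WT replicate 2, and 6 and 8 members reached 8 times the input. Of the 10 tallest members, 8 were also among the 10 with the most input tags, counting a site that tied for the last place. The exceptions were a site near the end of 4p, with 4 input tags, and one on chromosome Y at 13659176, with 9. The first by both measures lay in band 4p11, inside the centromere band of chromosome 4, from 49120988 to 49121428: it had 24 input tags, a height of 81.2 and a fold of 4.66 in WT replicate 1, and 18 tags, 77.7 and 5.99 in WT replicate 2. A neighbour at 49112658 to 49112974 had 18 input tags and a height of 55.5 in WT replicate 1, and no peak in WT replicate 2. On chromosome Y, the site from 13687697 to 13688017 had 22 input tags and a height of 70.2 in WT replicate 2 and no peak in WT replicate 1. Of these 3 sites, only the first was in both lists.

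The next sites by input tags were spread over 5 further chromosomes. In band 10q11.21, from 42370403 to 42370723, 17 input tags stood under a height of 52.1 in WT replicate 2 alone. In band 16p11.2, the site from 33866260 to 33866656 had 15 and 14 input tags and heights of 54.0 and 44.6, and the site from 33887530 to 33887850 had 14 input tags and a height of 45.1 in WT replicate 2 alone. The others had 11 to 14 input tags, each in 1 list: chromosome 1 at 149035219, chromosome 13 at 36532156, chromosome 10 at 127584592 and chromosome 21 at 11116035. Of the 10 sites with the most input tags, 7 lay within 1 Mb of a centromere band, and 2 of the 10 were in both lists. The last place was a tie. A site on chromosome 19 at 24185297, left out here, also had 11 input tags, in both lists. Counts over these 10 sites depend on which of the tied sites is kept.

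A few members stood well above the input. The site in band 4p16.3 on chromosome 4 from 52729 to 53049, close to the chromosome end, had 4 input tags in each list, heights of 50.3 and 43.3 and folds of 17.3 and 15.1. It was followed, by the lower of its 2 folds, by a site on chromosome 6 from 41424458 to 41424798 (folds of 14.2 and 10.2) and one on chromosome 1 from 202594007 to 202594352 (8.49 and 14.3). The chromosome 8 site at 68141887 to 68142292 had folds of 10.8 and 7.77. The chromosome 3 site at 195614481 to 195614840 had folds of 7.58 and 8.37. None of the 5 had more than 4 input tags in either list, and the 4p16.3 site was also among the 10 tallest members.

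The focus ratio is the share of a peak's tags that lie on the strand and side of its centre where tags from a single bound point would fall, so that a sharp peak scores near 1. Its direction depended on the peaks compared. Against all low-input peaks the members' median was higher, 0.857 against 0.821 in WT replicate 1 and 0.825 against 0.815 in WT replicate 2 (mean difference 0.0228, two-sided exact sign-flip p = 0.5 over 2 libraries). Against low-input peaks as high as the lowest member it was lower, with differences of -0.018 and -0.0465, those peaks having medians of 0.875 and 0.871. The members differed among themselves. Peaks with exactly 4 input tags had medians of 0.879 and 0.844 and those with exactly 5 had 0.829 and 0.833, while those with 6 or more had 0.670 and 0.677.

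The peaks with 6 or more input tags were thus the least focused, in both lists. Ratios under 0.7 were found in 11 of 20 such peaks in WT replicate 1 and in 15 of 25 in WT replicate 2. Among the low-input peaks as high as the lowest member, 5.35% and 8.78% were under 0.7. The tallest site, in 4p11, had ratios of 0.513 and 0.539, and the 16p11.2 site at 33866260 had 0.565 and 0.611. Some sites with many input tags were sharp all the same. The site in 19p12 on chromosome 19 from 24185297 to 24185617 had 11 input tags and ratios of 0.948 and 0.987, and the site on chromosome 2 from 33141124 to 33141471 had 0.912 and 0.931. A comparison of peaks with more than 5 input tags against all others gave a mean difference in medians of -0.146 (two-sided exact sign-flip p = 0.5, lower in both lists).

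**Figure D2:**
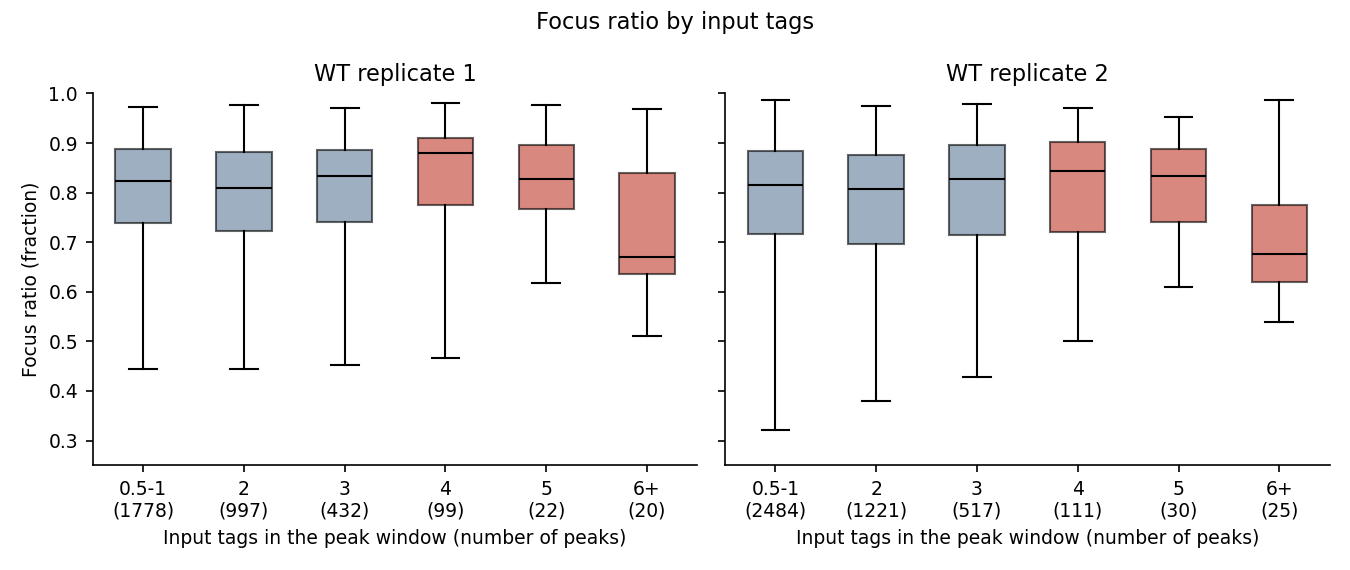
Focus ratio (fraction of tags, axis from 0.25 to 1) by input tags in WT replicates 1 and 2: boxes show quartiles and median, whiskers the lowest and highest peak, and numbers of peaks stand below. The medians of peaks with 6 or more input tags, 0.670 and 0.677, lie below those of every other class shown.

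Of the member sites, 110 of 244 or 45.1% held a peak in both WT lists, with 61 in WT replicate 1 alone and 73 in WT replicate 2 alone. At 63 of the 110 the input tags exceeded 3 in both lists. At the other 47 they exceeded 3 in one list and were 1 to 3 in the other, although the same input was counted. Over all 110 shared members, the window centres lay a median of 27.0 bp apart. Whether this offset accounts for the differing input tags was not tested. At the shared members, the log2 ratio of WT replicate 2 to WT replicate 1 height had a median of -0.01 and an SD of 0.32 across sites, beside -0.02 and 0.37 at the 2048 shared low-input sites. The 2 SDs were thus similar, but the shared low-input sites were not matched to the members in height. Variation between libraries at like height was not compared.

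As a share of each list, 80 of 141 members of WT replicate 1 were found in WT replicate 2, which was 56.7% (48.1 to 65.0%), against 64.8% (63.1 to 66.5%) of its low-input peaks. In WT replicate 2 the order was the opposite, with 93 of 166 members, or 56.0% (48.1 to 63.7%), against 48.9% (47.4 to 50.4%). The mean difference of -0.472 percentage points was within the spread between the lists (two-sided exact sign-flip p = 1). Low-input peaks as high as the lowest member were shared far more often, in 89.1% (87.1 to 90.9%) and 82.3% (80.0 to 84.5%) of cases, a mean difference of -29.3 points for the members, which were lower in both lists (two-sided exact sign-flip p = 0.5). Those tall low-input peaks had median folds over input of 15.9 and 15.8, so they were also much farther from the caller's limit. Peaks with exactly 3 input tags, of any height, were shared in 62.3% (57.5 to 66.9%) and 54.2% (49.8 to 58.5%) of cases, nearer to the members.

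In the fold classes that held both kinds of peak, no gap of this size was seen. Members at 4 to under 5 times the input were shared in 40.0% (29.2 to 51.6%) of 80 cases in WT replicate 1 and in 45.2% (34.8 to 55.8%) of 93 in WT replicate 2, and no low-input peak of member height had so low a fold. At 5 to under 6 times the input, 73.0% of 37 members and 67.0% of 91 low-input peaks were shared in WT replicate 1, and 62.0% of 50 and 69.1% of 81 in WT replicate 2. At 6 to under 8 times, the shares were 88.9% of 18 against 82.4% of 131 in WT replicate 1, and 86.7% of 15 against 72.8% of 147 in WT replicate 2. At 8 times or more, 5 of 6 members and 92.5% of 844 low-input peaks were shared in WT replicate 1, and 7 of 8 and 85.1% of 899 in WT replicate 2. The intervals of members and low-input peaks overlapped in each class that held both. The largest member class, under 5 times the input, could not be compared. Height, fold and input tags are tied, so low-input peaks of member height reach low folds only near the limit of 3 input tags. Whether fold accounts for the gap in sharing was not tested. The classes were set after the data had been seen.

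**Figure D3:**
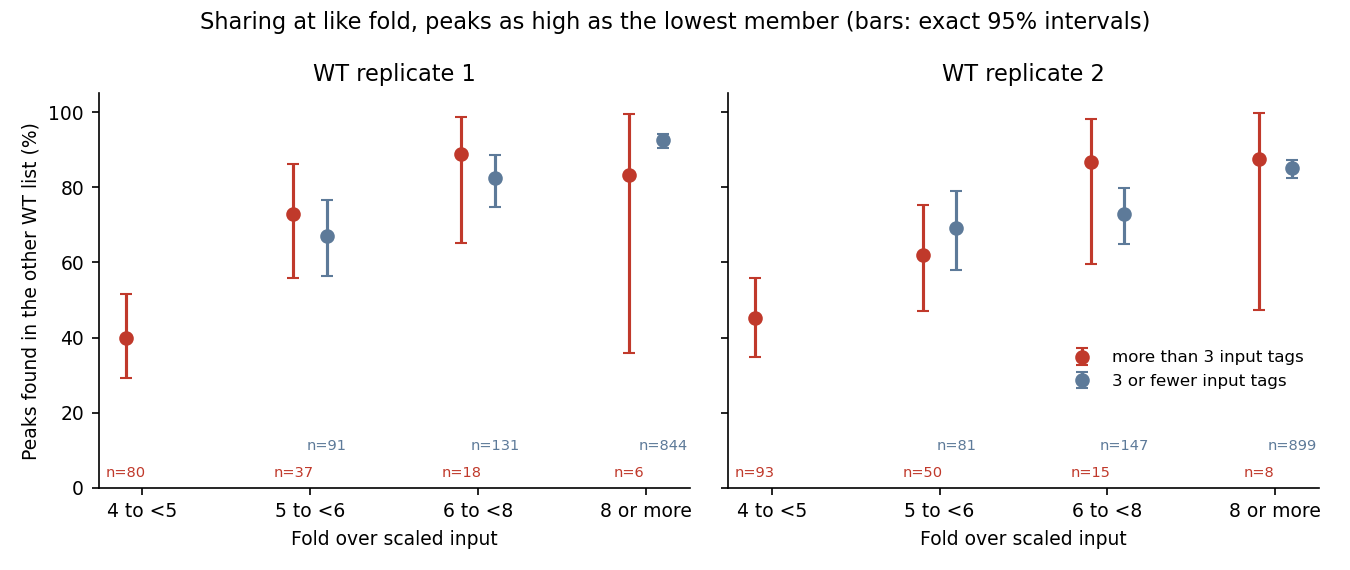
Share of WT peaks found in the other WT list (%) by fold over scaled input, for members (red) and for low-input peaks as high as the lowest member (blue), with exact 95% intervals and numbers of peaks. Among members the share was 40.0% and 45.2% at 4 to under 5 times the input and 88.9% and 86.7% at 6 to under 8 times.

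Members lay near centromeres more often than low-input sites. Distances were taken to the centromere bands of the hg19 cytoband map, not to assembly gaps, which were not used here. Of the 244 members, 24 were inside such a band or within 1 Mb of it, which was 9.84% (6.40 to 14.3%), against 95 of 5334 low-input sites, or 1.78% (1.44 to 2.17%). By list, the shares were 11.3% against 1.75% in WT replicate 1 and 10.2% against 1.73% in WT replicate 2. The merged difference was 8.06 percentage points. In the lists taken alone it was 9.60 and 8.51 (two-sided exact sign-flip p = 0.5 over these 2 values). All of these were larger than the spread between the lists, which share their input. Against low-input sites as high as the lowest member, of which 1.88% lay that close, the merged difference was 7.96 points.

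The 24 sites near centromere bands lay on 10 chromosomes, and 7 of them on chromosome Y. On the autosomes alone, 17 of 230 members, 7.39% (4.36 to 11.6%), and 92 of 5281 low-input sites, 1.74% (1.41 to 2.13%), lay within 1 Mb. The share rose with the number of input tags. It was 4.22% (1.71 to 8.50%) of the 166 sites with 4 input tags, 11.1% (3.71 to 24.1%) of the 45 with 5 and 36.4% (20.4 to 54.9%) of the 33 with 6 or more. Low-input sites with exactly 3 input tags were at 2.56% (1.55 to 3.97%). On the autosomes, 7 of 203 members with 4 or 5 tags lay within 1 Mb, 3.45% (1.40 to 6.98%), an interval that takes in the low-input share. The whole member list therefore differed from the low-input sites mainly through its sites with most input tags and through chromosome Y.

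**Figure D4:**
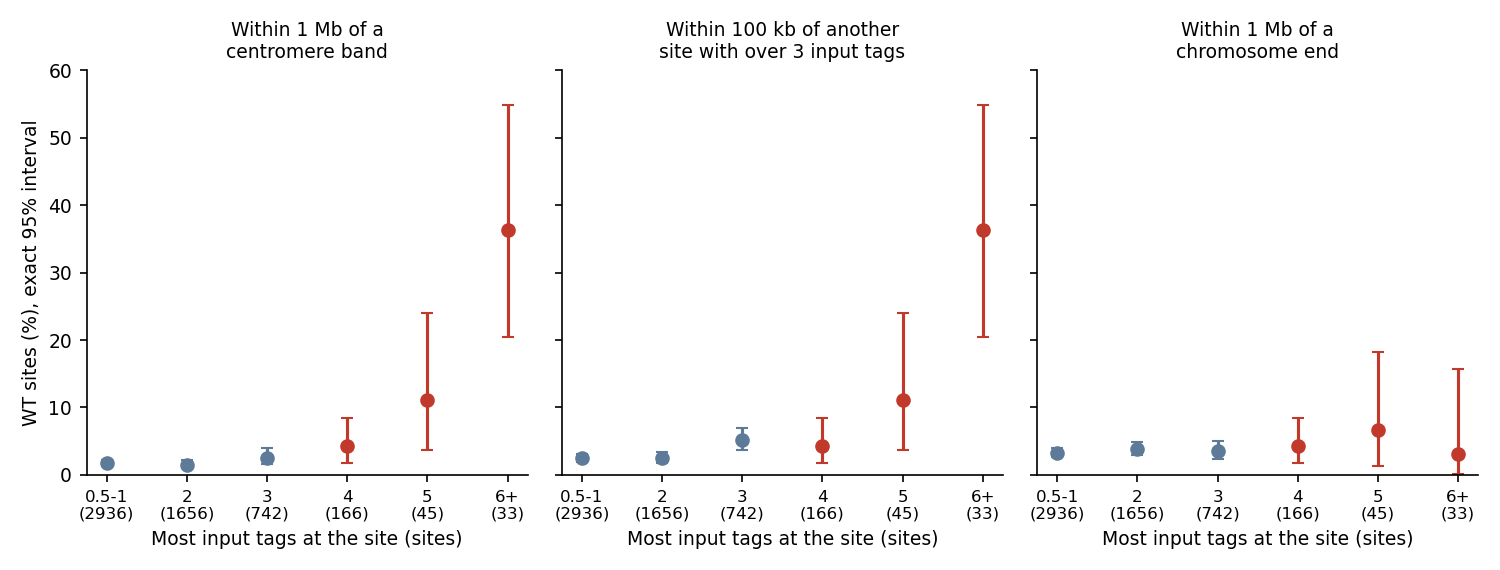
Share of WT sites (%) within 1 Mb of a centromere band, within 100 kb of another member and within 1 Mb of a chromosome end, by the highest input tag number at the site, with exact 95% intervals and numbers of sites. The first 2 shares reach 36.4% at 6 or more input tags, and the share near chromosome ends is between 3.03% and 6.67% in all classes.

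Chromosome Y stood apart. Of its 22 WT sites, 14 were members, 63.6% (40.7 to 82.8%), whereas 230 of 5511 autosomal sites were, 4.17%, with a range of 0.664% to 6.53% over the 22 autosomes. The members were 10 of 17 Y peaks in WT replicate 1 and 11 of 15 in WT replicate 2. The share was high in both lists, which counted the same input and are not independent in this. The lowest autosome was chromosome 19, with 2 members among 301 sites (0.0806 to 2.38%), and the highest chromosome 6, with 19 among 291 (3.98 to 10.0%). Chromosome X held 0 members among 45 sites, which allows a share of up to 6.67% by a limit of 3 counts, or 7.87% by the exact interval, so a share like that of the autosomes could not be told from 0.

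**Figure D5:**
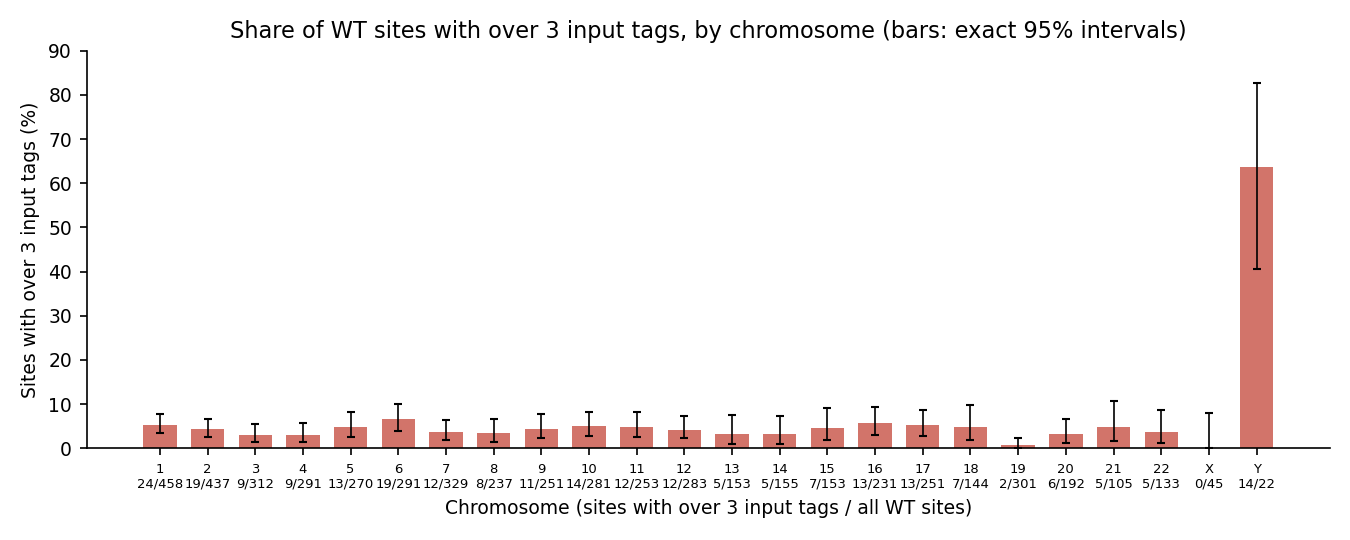
Share of WT sites with more than 3 input tags (%) on each chromosome, with exact 95% intervals and the number of members over all WT sites below each bar. Chromosome Y reaches 63.6%, and the autosomes lie between 0.664% and 6.53%.

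A minority of members lay close to one another, and the median distance from a member to the nearest other one was 2773 kb. Of the 244, 24 had another member within 100 kb, 9.84% (6.40 to 14.3%), and 152 of the 5334 low-input sites had a member that close, 2.85% (2.42 to 3.33%). With members defined in each list alone, the shares were 9.22% against 1.34% in WT replicate 1 and 10.8% against 2.01% in WT replicate 2. Those differences were 7.88 and 8.83 percentage points (two-sided exact sign-flip p = 0.5 over these 2 values), and the merged difference was 6.99. On the autosomes the difference was 2.04 points, with 11 of 230 members, 4.78% (2.41 to 8.40%), against 145 of 5281, 2.75% (2.32 to 3.22%), and the intervals overlapped. Autosomal members with 4 or 5 input tags were at 2.46% (0.804 to 5.65%) of 203, no higher than the low-input sites. With any other WT site as the neighbour, the shares within 100 kb were 47.1% and 46.0%. By list, that difference was 1.86 and 4.43 points. Low-input sites as high as the lowest member were at 40.1%, while on the autosomes members were at 43.9% and low-input sites at 46.3%. Whether members lay closer to WT sites in general thus depended on the sites compared. Of the 24 members with another member within 100 kb, 13 were on chromosome Y.

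The 24 sites formed 9 groups, of which 3 held more than a pair. The largest, on chromosome Y from 13659176 to 13802438 (band Yq11.21), held 5 members among 7 WT sites, with 4 to 22 input tags and heights up to 70.2. Its only sites in both lists started at 13659176, with heights of 47.1 and 49.5, at 13704164, with 22.0 and 18.1, and at 13802112, with 26.7 and 35.3. A second Y group, from 28784213 to 28800399 at the border of Yq11.23 and Yq12, held 4 members and no other WT site, with 4 to 10 input tags. In 16p11.2, 3 members lay from 33864889 to 33887850, 712 kb or more from the centromere band. Pairs lay in 4p11 and 21p11.1 inside centromere bands, at 29677715 on chromosome 16, at 3323642 on chromosome 5, and at 13195322 and 58855894 on chromosome Y.

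At chromosome ends the contrast was smaller than at centromere bands and rested on few sites. Within 1 Mb of an end lay 11 members, 4.51% (2.27 to 7.92%), and 187 low-input sites, 3.51% (3.03 to 4.03%). The merged difference of 1.00 percentage point was small beside these intervals. In the lists taken alone it was positive, at 1.85 and 1.68 points (two-sided exact sign-flip p = 0.5 over these 2 values). Over merged sites it turned to -1.03 within 5 Mb and to -0.522 for sites with more than 5 input tags, while the lists taken alone stayed positive (1.10 and 0.921 within 5 Mb, 1.81 and 0.195 with more than 5 tags). Within 100 kb of an end lay 2 members, 0.820% (0.0994 to 2.93%), 2 of the 5334 low-input sites, 0.0375% (0.00454 to 0.135%), and 0 of the 1595 as high as the lowest member. At 8 times the input or more, 2 of 13 member sites lay within 1 Mb, a difference of 12.0 points (30.6 and 8.88 by list). The 11 sites were spread over 9 chromosome ends, with a pair at 11p and a pair at Yq, and 7 of them were in both lists. Besides the 4p16.3 site they included a sharp site on chromosome 12 at 95325 to 95662, which had 4 and 5 input tags, heights of 26.2 and 25.2 and focus ratios of 0.981 and 0.948, and one on chromosome 11 at 189311 to 189634, whose heights were 16.8 and 23.4.

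The KO lists, with 11 and 12 peaks, were then set beside the members. More than 3 input tags were found at 1 of 11 peaks in KO replicate 1, 9.09% (0.230 to 41.3%), and at 2 of 12 in KO replicate 2, 16.7% (2.09 to 48.4%). The WT shares were 4.21% (3.56 to 4.95%) and 3.78% (3.24 to 4.39%). The WT mean was 4.0 ± 0.303% (SD, n = 2). The KO mean was 12.9 ± 5.36% (SD, n = 2), and WT minus KO was -8.88 points (two-sided exact permutation p = 0.333). KO windows were 179 and 186 bp wide against 317 and 321 bp in WT, and a narrower window holds fewer input tags. No KO peak had more than 4 input tags, so with a limit of 5 tags the difference turned to 0.584 points.

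Members had KO peaks nearby more often than low-input sites did. Within 100 kb of a KO peak lay 9 of 244 members, 3.69% (1.70 to 6.89%), and 16 of 5334 low-input sites, 0.300% (0.172 to 0.487%). Seen from the KO side, 7 of the 23 KO peaks had a member within 100 kb and 10 had a low-input site, although low-input sites were far more numerous. Of the 9 members, 7 neighboured a peak of KO replicate 2 and 2 a peak of KO replicate 1, so without KO replicate 2 the count was 2 of 244, 0.820%, against 0.169% of the low-input sites. Sites with 6 or more input tags had a KO peak within 100 kb in 4 of 33 cases, 12.1% (3.40 to 28.2%).

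Overlap with a KO peak was found at 2 of 244 members, 0.820%, and at 1 of 5334 low-input sites, 0.0187%, the latter on chromosome 17. In 16p11.2, the site from 33864889 to 33865343 had 4 and 5 input tags and heights of 32.0 and 26.1 in WT replicates 1 and 2, and the KO replicate 2 peak at 33864957 to 33865143 had a height of 8.96. In 21p11.2, 156 kb from the centromere band, the site from 10743609 to 10743925 had 4 input tags and a height of 13.6 in WT replicate 1 alone, and the KO replicate 1 peak there had 9.27. Both KO heights were lower than the WT ones, over narrower windows. The other members of the 16p11.2 group, at 33866260 and 33887530, were near the same KO peak. A member on chromosome 10 at 127584592 (height 42.4, WT replicate 2 alone) lay 9.18 kb from a KO replicate 2 peak with a height of 12.5. One on chromosome 1 at 143536797 (heights 27.2 and 24.7) lay 3.12 kb from a KO replicate 2 peak with 7.76. One on chromosome 9 at 68403089 (height 12.0, WT replicate 1 alone) lay 2.97 kb from a KO replicate 2 peak with 8.96. The last lay on chromosome 17 at 25279336, inside the centromere band, and on chromosome Y at 9991969, at 17.5 and 31.8 kb from KO peaks with 7.28 and 8.36. Heights in KO at members without a KO peak are not in the lists, so loss of signal there was not tested.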

How the data were processed

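The input was 4 peak lists, 1 per library. Reads were processed with BWA 0.7.17, Picard and HOMER 4.10 against hg19, per the submitters' processing notes. Per the file headers, the authors ran HOMER findPeaks on each library without pooling, against 1 input directory whose name carries 2 day labels, and kept peaks at least 4-fold over input and over the surrounding 10 kb. The deposited normalized tag count, scaled tags and input tags are signal values, the last with a floor of 0.5. The deposited fold columns are ratios, the focus ratio is a fraction, and the findPeaks score and the unadjusted p-values, also computed by the authors' caller, were not used.

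Overlap meant at least 1 bp. Distances between sites were between centres, and those to bands and ends were from edges. Bands came from circlize 0.4.16 and chromosome lengths from GenomeInfoDb 1.38.1 (R 4.3.3). Exact tests and intervals used scipy 1.17.1, figures matplotlib 3.10.9 and tables pandas 2.3.3 with numpy 2.4.6, all under Python 3.11.15, and the overlap and distance searches were tested on simulated lists. Positions count from 1, and a merged site runs from the first start to the last end. Tests were exact sign-flip or permutation tests over libraries. Sites were named by fixed rules: the 10 with most input tags, the 10 tallest, groups of 3 or more, those within 100 kb of KO peaks, the 5 shared sites of highest fold, and counts at chromosome ends. The member limit, lists and tests were chosen with earlier results of these data known. The input tag classes, the focus ratio limit of 0.7 and single sharp sites were picked after their values had been seen.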

Additional observations from a re-analysis of the deposited data

How the results depend on the processing

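Of 72 alternatives, 53 kept the direction and, for counts and heights, the size; no test could pass a threshold at 2 libraries per group. The median height difference of 5.74 normalized tags was 2.60 with a limit of 2 input tags, 23.1 with 5, 2.15 against low-input peaks at least as high as the lowest member and 18.7 at 8 times the input. The focus ratio difference of 0.0228 turned to -0.146 with a limit of 5 tags, -0.0323 against those same tall peaks and -0.013 at 8 times the input. The difference in sharing, -0.472 points, averaged lists of opposite sign (-8.06 and 7.11), so it had no clear direction to keep. It turned to 1.08 with a limit of 2 tags and to 10.2 among peaks at 6 to 8 times the input. Against the tall low-input peaks it was -29.3, and at 8 times the input -22.9. Both of these were counted as keeping the direction, although the size changed greatly. The difference at chromosome ends turned to -0.522 (limit of 5 tags) and -1.03 (within 5 Mb) over merged sites, with both lists positive, and was 12.0 at 8 times the input. That in closeness to other members turned to -0.276 at 8 times the input, where 13 member sites were left. The WT minus KO share of peaks over the limit, -8.88 points, turned to 0.584 with a limit of 5 tags and 0.288 at 8 times the input, where no KO peak had more than 3 input tags. With the replicate block it was -8.88 (exact sign-flip p = 0.5), and the shared numbers are the only reason to pair. The 9 members near KO peaks became 2 by overlap (0.820% against 0.0187% of low-input sites), 16 within 1 Mb (6.56% against 1.24%), 4 of 33 with a limit of 5 tags (12.1% against 0.379%), 5 with 4 or 5 tags only (2.37% against 0.300%), and 2 to 7 without a library. The cause of these changes was not tested. The rule could not be computed for sharing without a WT list. An input of about 13800000 tags leaves most windows with few tags, which limits every split by input. The 4 or 5 tag, 6 to 8 fold and autosome settings for KO peaks, and the neighbour of any kind, were chosen after seeing the data.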

Other observations

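In the cytoband map, 31.1% (25.4 to 37.4%) of the members lay in dark-stained (gpos) bands, against 40.8% (39.5 to 42.2%) of the low-input sites, and 63.1% (56.7 to 69.2%) against 57.7% (56.4 to 59.1%) in unstained (gneg) bands. On the autosomes the gpos shares were 33.0% (27.0 to 39.5%) and 40.8% (39.5 to 42.1%). Low-input sites as high as the lowest member were at 44.5% in gpos and 54.0% in gneg bands. Bands of variable heterochromatin (gvar) held 7 members, 2.87% (1.16 to 5.82%), against 0.787% (0.568 to 1.06%), of which 3 members were on chromosome Y. The fold over the surrounding 10 kb, a measure that does not use the input, had member medians of 11.2 and 10.3 in WT replicates 1 and 2, beside 10.5 and 10.2 for low-input peaks as high as the lowest member and 7.76 and 7.20 for all low-input peaks. Peaks with 6 or more input tags had medians of 7.92 and 11.7, on opposite sides of the tall low-input peaks.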
